A study of Mus musculus with 24 samples.

Results

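Transcripts captured on tagged astrocyte ribosomes were compared with the RNA left behind in mouse cerebral cortex. All 24 samples of the series entered the comparison and were chosen by their labelled sample type: 18 were bound fractions and 6 were unbound fractions. Every animal was an adult mouse heterozygous for aldh1l1 - eGFP-L10a, a transgene that puts a green fluorescent tag on ribosomal protein L10a under control of the Aldh1l1 promoter. There were therefore no animals without the transgene, and cells in which that promoter is silent carried no tag. The bound fraction was the RNA precipitated with the tag, 1 array per animal, from 6 sleeping, 6 waking and 6 sleep-deprived mice. The unbound fraction was the supernatant of the same animals, pooled from 3 animals per array, with animals 1 to 3 in one pool and animals 4 to 6 in the other for each state. Sleeping mice were killed in the light phase at the end of a sleep bout longer than 45 min, having slept for at least 75% of the hours before. Waking mice were killed in the dark phase after a wake bout longer than 1 h, having been awake for at least 70% of that time, and sleep-deprived mice, awake for most of the dark phase, were then kept awake for 4 h of light with new objects. The 2 fractions also differed in how RNA was purified: bound RNA was purified on Nanoprep columns with DNase digestion, and supernatant RNA with the RNeasy Mini kit.

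Astrocytes are the glial cells that clear glutamate and potassium from the extracellular space, couple to one another through gap junctions, cover blood vessels with endfeet and supply neurons with metabolites and lipids. Translating ribosome affinity purification tags a ribosomal protein in 1 cell type and pulls down the ribosomes with the mRNA they are translating. RNA that is not on ribosomes, such as nuclear non-coding RNA or transcripts made inside mitochondria, and RNA of untagged cells should remain in the supernatant.

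Levels are log2 values from Affymetrix arrays, on which 18193 genes were measured, each through its brightest probe set (highest mean over all arrays). The fractions were compared with a linear model (limma) that weighted sleep, waking and sleep deprivation equally, and a gene was called higher or lower where the adjusted p was under 0.05. The median gene was 0.16 higher in the bound fraction, and this median was taken off every difference printed below, while calls and adjusted p rest on the differences as fitted. A value after ± is the standard error of the fit unless it is marked as SD. In tissue RNA, fewer cells of a type and less RNA per cell cannot be told apart.

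Some features of the arrays touch all results. Array medians ran from 5.65 to 5.87 in the bound and from 5.5 to 5.84 in the unbound fraction. Within a group, any pair of arrays shared between 52 and 2248 exactly equal values, whereas 0 such ties occurred in 228 pairs from different groups, as can arise when arrays are normalized group by group. If the arrays were processed that way, fraction and processing run cannot be told apart. The bound arrays of animals 1 to 3 and of animals 4 to 6 stood apart: 7972 genes (43.8%) differed between these sets, 4159 of them higher in animals 4 to 6 and 3813 lower. The median absolute difference between the sets was 0.26 in the bound and 0.14 in the unbound fraction. Among the unbound pools 0 genes passed this limma test, with 1040 at an unadjusted p under 0.05. The labels do not say what distinguished the sets, and what caused the difference was not tested. The bound-minus-unbound difference itself differed between the sets for 3854 genes (21.2%), and values of both sets are therefore given for genes where they lie far apart.

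Of the 18193 genes, 12627 (69.4%) passed the test: 7672 (42.2%) with more signal in the bound fraction and 4955 (27.2%) with less. The call was accompanied by complete separation for 3126 genes (17.2%), in which every bound array lay above every unbound one, and for 1842 (10.1%) in which every bound array lay below. A difference of at least 2-fold was reached by 2905 higher and 2711 lower genes, and one of at least 8-fold by 372 and 159. Beyond 16-fold there were 72 genes in the bound and 11 in the unbound direction. The balance of the 2 directions moved with the scaling of the arrays: of all called genes 60.8% were higher as deposited, but 39.7% were when each array was centred on its own median, with 5049 higher and 7662 lower genes. Centring moved the median difference of all genes from 0.16 to -0.16. Of the calls, 79.2% kept their direction and call after centring.

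**Figure D1:**
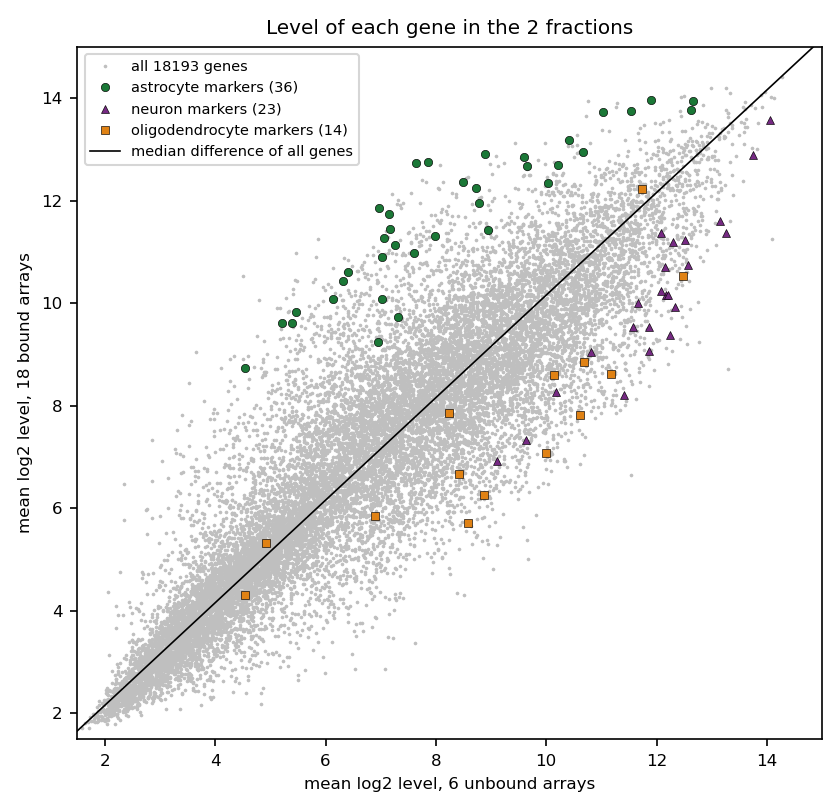
Mean log2 level of each of the 18193 genes in the 6 unbound arrays (x axis) and the 18 bound arrays (y axis), with astrocyte, neuron and oligodendrocyte markers drawn as circles, triangles and squares and the median difference of 0.16 as a line. All 36 astrocyte markers lie above the line and all 23 measured neuron markers lie below it.

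The labelled cell type was checked on its defining markers. Aldh1l1, a folate enzyme of astrocytes whose regulatory region also drives the tag, had log2 levels from 10.52 to 11.27 (median 10.97) in the bound arrays and from 6.75 to 7.23 (median 7.05) in the unbound arrays. The water channel gene Aqp4 ranged from 11.96 to 12.54 (median 12.28) in bound and from 8.29 to 9.28 (median 8.57) in unbound arrays. The connexin gene Gjb6 lay between 10.65 and 11.76 (median 11.39) against 6.09 to 7.62 (median 7.37). For none of these genes did any bound array overlap an unbound one. The glutamate transporter gene Slc1a3 covered 12.66 to 12.98 (median 12.85) and 9.26 to 9.96 (median 9.58), again without overlap. The differences were 3.72 ± 0.11 for Aldh1l1, 3.36 ± 0.08 for Aqp4, 4.05 ± 0.08 for Gjb6 and 3.10 ± 0.07 for Slc1a3, with adjusted p from 7.44e-18 to 4.05e-20. Between animals 1 to 3 and animals 4 to 6 these differences varied little, with 3.81 and 3.63 for Aldh1l1, 3.46 and 3.26 for Aqp4, 3.93 and 4.16 for Gjb6, and 2.98 and 3.22 for Slc1a3. Rpl10a, the gene of the ribosomal protein that carries the tag, spanned 12.45 to 13.51 in bound and 11.49 to 11.89 in unbound arrays. Its difference was 1.60 in animals 1 to 3 and 0.74 in animals 4 to 6. Whether its probes read the transgene was not tested.

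The promoters of Aldh1l1, Gjb6 and Slc1a3 (RefSeq, build GRCm38.p6) are shown with those of Pclo and Syn1, presynaptic genes that were lower in the bound fraction, because the 2 kinds of gene differed in CpG content in these examples. Each sequence runs from 250 bases before to 50 bases after the start of the gene, and capitals mark CG dinucleotides.
Aldh1l1 promoter, chr6:90550543-90550842, plus strand: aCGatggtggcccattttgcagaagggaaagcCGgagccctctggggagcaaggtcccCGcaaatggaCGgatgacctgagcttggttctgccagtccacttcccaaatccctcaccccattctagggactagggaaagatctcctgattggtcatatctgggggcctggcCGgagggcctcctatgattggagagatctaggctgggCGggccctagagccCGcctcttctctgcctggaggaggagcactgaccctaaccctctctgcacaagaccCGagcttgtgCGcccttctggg
Gjb6 promoter, chr14:57133562-57133861, minus strand: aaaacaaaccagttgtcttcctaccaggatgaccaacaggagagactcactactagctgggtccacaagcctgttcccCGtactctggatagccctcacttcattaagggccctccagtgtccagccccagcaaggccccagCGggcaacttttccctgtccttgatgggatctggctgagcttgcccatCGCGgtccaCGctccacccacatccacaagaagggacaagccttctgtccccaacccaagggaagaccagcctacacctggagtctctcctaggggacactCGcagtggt
Slc1a3 promoter, chr15:8710758-8711057, minus strand: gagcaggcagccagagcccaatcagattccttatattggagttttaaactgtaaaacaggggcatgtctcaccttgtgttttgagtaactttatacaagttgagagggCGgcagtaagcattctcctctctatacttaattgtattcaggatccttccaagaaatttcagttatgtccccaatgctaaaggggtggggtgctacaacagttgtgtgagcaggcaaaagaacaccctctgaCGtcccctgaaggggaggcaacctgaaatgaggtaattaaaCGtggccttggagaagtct
Pclo promoter, chr5:14514668-14514967, plus strand: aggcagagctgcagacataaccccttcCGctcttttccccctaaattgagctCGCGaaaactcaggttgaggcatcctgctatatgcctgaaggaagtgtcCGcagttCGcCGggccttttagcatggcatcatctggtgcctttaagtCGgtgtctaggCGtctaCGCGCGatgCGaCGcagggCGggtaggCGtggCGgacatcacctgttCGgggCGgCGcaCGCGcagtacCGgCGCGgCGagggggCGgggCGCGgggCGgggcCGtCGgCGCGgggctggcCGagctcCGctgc
Syn1 promoter, chrX:20920869-20921168, minus strand: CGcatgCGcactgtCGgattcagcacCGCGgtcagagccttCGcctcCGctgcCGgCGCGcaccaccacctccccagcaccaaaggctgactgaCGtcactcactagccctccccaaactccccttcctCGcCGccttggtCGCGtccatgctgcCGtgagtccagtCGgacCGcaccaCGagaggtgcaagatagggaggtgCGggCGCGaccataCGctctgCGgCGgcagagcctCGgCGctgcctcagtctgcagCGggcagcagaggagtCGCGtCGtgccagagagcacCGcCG

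The promoters of Aldh1l1, Gjb6 and Slc1a3 held 9, 6 and 3 CG dinucleotides, and those of Pclo and Syn1 held 35 and 33. Over all 14449 tested genes with a listed promoter the median was 17 (quartiles 6 and 26). It was 13.5 over the 298 listed promoters of genes at least 8-fold higher in the bound fraction, and 19.5 over the 122 of genes at least 8-fold lower. The quartiles of the 2 sets, 6 to 22.75 and 9.25 to 31.75, overlapped widely. The genes themselves differed more in length: the median gene span was 18.6 kb (quartiles 6.9 and 39.6) for the genes higher by 8-fold, 86.4 kb (quartiles 24.4 and 249.9) for the genes lower by 8-fold, and 20.2 kb (quartiles 7.9 and 50.3) over all genes. Short motifs were searched on both strands of the same windows. The cyclic AMP response element TGACGTCA was present in 0.671% (2) of the promoters of the 8-fold higher genes, in 4.1% (5) of those of the 8-fold lower genes and in 2.68% of all. The left arm of the motif of the neuronal repressor REST, TTCAGCACC, occurred in 0%, 1.64% (2 promoters) and 0.381%. The shares of the 2 gene sets thus rest on very few promoters. Both motifs are present in the Syn1 promoter shown above, but Syn1 was not among the 8-fold lower genes. The SOX motif CATTGT was found in 7.05%, 9.84% and 9.27%. The paired nuclear factor I motif, TGGC and GCCA with 5 free bases between them, was found in 0.336%, 0.82% and 0.789%. The E-box CAGATG was found in 15.1%, 12.3% and 13.5%. The RFX motif, GTTGCC and GG with 2 free bases between them and AAC after 1 more, occurred in 0%, 0% and 0.36%. These shares describe the presence of letters in a window and are not tests of binding.

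Marker lists of 12 cell types were followed on every array as the mean level of the list minus the median of all genes on that array. Their members, like those of the lists below, were chosen with earlier results of these data known. Astrocyte markers lay between 4.43 and 4.80 (median 4.56) on the bound and between 1.44 and 1.59 (median 1.51) on the unbound arrays. Pan-neuronal markers lay between 2.78 and 3.26 (median 2.99) on the bound and between 5.13 and 5.21 (median 5.16) on the unbound arrays. Markers of myelinating oligodendrocytes had medians of 0.42 and 2.33, and microglia markers medians of -0.94 and 0.35, again with no overlap between fractions. The neuron list thus remained well above the array median in the bound fraction although each of its measured members was lower there. Endothelial markers overlapped, at -2.11 to -1.44 on bound and -1.80 to -1.44 on unbound arrays. Pericyte and smooth muscle markers overlapped as well, at -1.41 to -0.80 and -1.04 to -0.75. Meningeal and fibroblast markers went the other way and were higher in the bound fraction, at 0.27 to 1.66 against -0.70 to -0.16. Ependymal and choroid plexus markers varied most between animals, from -1.65 to 1.5 on bound and from -1.74 to -0.37 on unbound arrays.

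**Figure D2:**
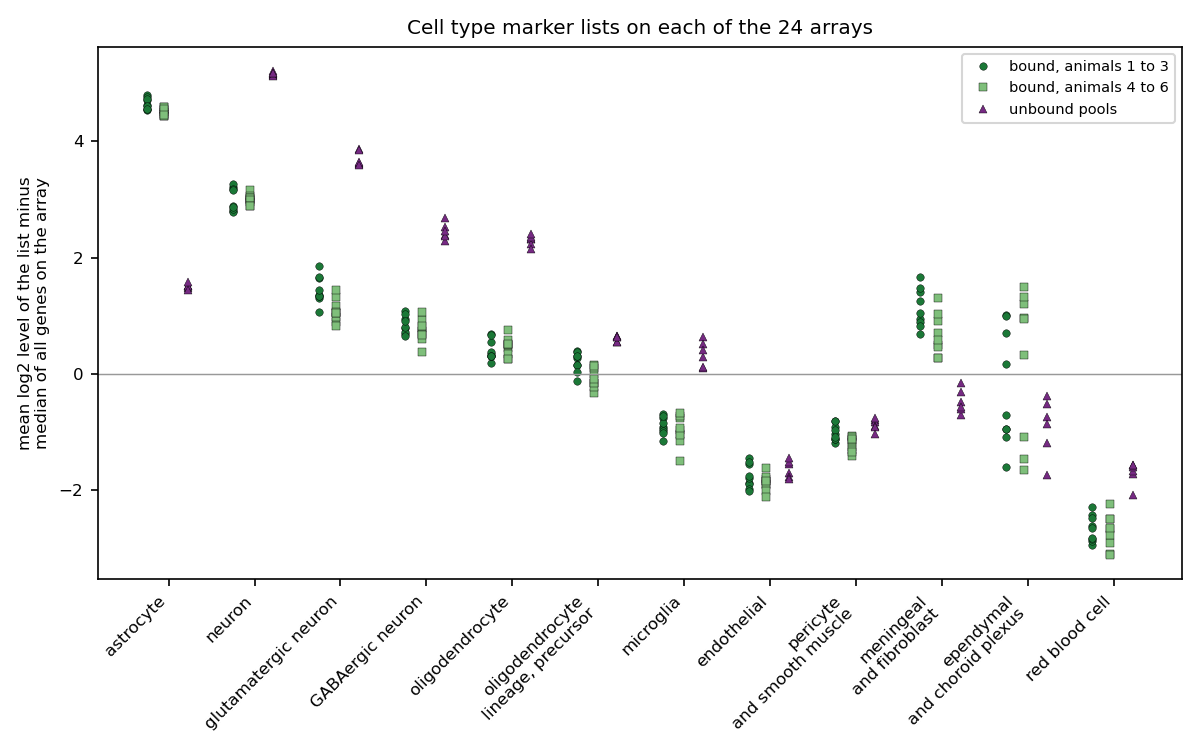
Mean log2 level of 12 cell type marker lists minus the median of all genes, on each array (y axis), for bound arrays of animals 1 to 3, bound arrays of animals 4 to 6 and unbound pools. The 18 bound arrays lie above all 6 unbound arrays for astrocyte and meningeal markers and below them for neuronal, oligodendrocyte, microglial and red blood cell markers, and the fractions overlap for endothelial, pericyte and ependymal or choroid plexus markers.

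All 36 astrocyte markers were called higher, and in all 36 every bound array exceeded every unbound array, beside 42.2% and 17.2% of all genes. Because earlier results were known when the list was chosen, these counts describe the list and are no test. The median difference of the markers was 3.29, beside 0 over all genes by construction. The size of the enrichment varied widely among them, from 0.98 ± 0.09 for the glutamate transporter gene Slc1a2 to 4.94 ± 0.41 for Apoe, the main lipoprotein of the brain. Slc1a2 and the glutamine synthetase gene Glul (1.12 ± 0.06), both classical astrocyte genes, had high unbound levels of 12.43 to 12.78 and 12.47 to 12.89. Their probe sets were brighter still on bound arrays, and whether this compressed the differences was not tested. Over the alternative analyses the difference ran from 0.774 to 1.263 for Slc1a2 and from 0.92 to 1.963 for Glul. Among the astrocyte markers the list median was nearly the same in both sets of animals, 3.30 and 3.38, and in sleep, waking and sleep deprivation, 3.33, 3.16 and 3.37.

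The 15 genes most enriched in the bound fraction were ranked by the size of the difference. Only called genes without overlap between the fractions entered the ranking, so the lack of overlap is no result for them. Lfng, a Fringe enzyme that adds sugars to Notch receptors, came first, at 8.70 to 12.29 (median 10.44) on bound and 4.04 to 5.07 (median 4.50) on unbound arrays. The bound arrays of Lfng fell into the 2 animal sets, at 11.32 to 12.29 in animals 1 to 3 and 8.70 to 9.57 in animals 4 to 6. The difference of Lfng was 5.86 ± 0.60 (adjusted p = 1.14e-08), with 7.03 and 4.70 in the sets, and a second probe set of the gene gave 3.14 ± 0.13. Ppp1r3g, which targets protein phosphatase 1 to glycogen, covered 10.09 to 11.86 (median 11.05) and 4.00 to 6.39 (median 5.64), a difference of 5.36 ± 0.22. The long non-coding RNA Celrr was measured at 8.62 to 9.37 (median 9.05) and 2.98 to 4.31 (median 3.65), with a difference of 5.24 ± 0.12 (adjusted p = 9.37e-20) that was close in the sets (5.01 and 5.46). The lowest bound value of Celrr, 8.62, lay well above its highest unbound value, 4.31. Apoe reached 11.72 to 13.85 (median 12.72) against 7.25 to 7.94 (median 7.63), and its bound arrays again split by set, 13.52 to 13.85 in animals 1 to 3 and 11.72 to 11.93 in animals 4 to 6. Mgst1, a membrane-bound glutathione transferase, had the tightest values of the 15 by its standard error, 9.72 to 10.41 against 5.23 to 5.54, with a difference of 4.62 ± 0.09.

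The other genes of this group were Tlcd1 (5.24 ± 0.28), Eva1a (5.10 ± 0.11), Pdlim4 (4.93 ± 0.24), the peroxisomal membrane protein gene Pxmp2 (4.85 ± 0.16), the collagen chaperone gene Serpinh1 (4.80 ± 0.26) and Cth, which makes cysteine from cystathionine (4.76 ± 0.16). They were followed by the GABA transporter gene Slc6a11 (4.75 ± 0.39), the neurotensin receptor gene Ntsr2 (4.75 ± 0.21), the claudin gene Cldn10 (4.73 ± 0.14) and the glutamine transporter gene Slc38a3 (4.70 ± 0.47). All 15 were called in each state. Slc6a11 and Slc38a3 were among the genes whose size depended on the animals, with 5.71 and 3.80 and with 5.68 and 3.72 in the sets. A second probe set did not pass the test for Slc6a11 (-0.11 ± 0.12) and for Mgst1 (-0.24 ± 0.15), while further probe sets of Tlcd1, Serpinh1 and Slc38a3 were all higher.

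**Figure D3:**
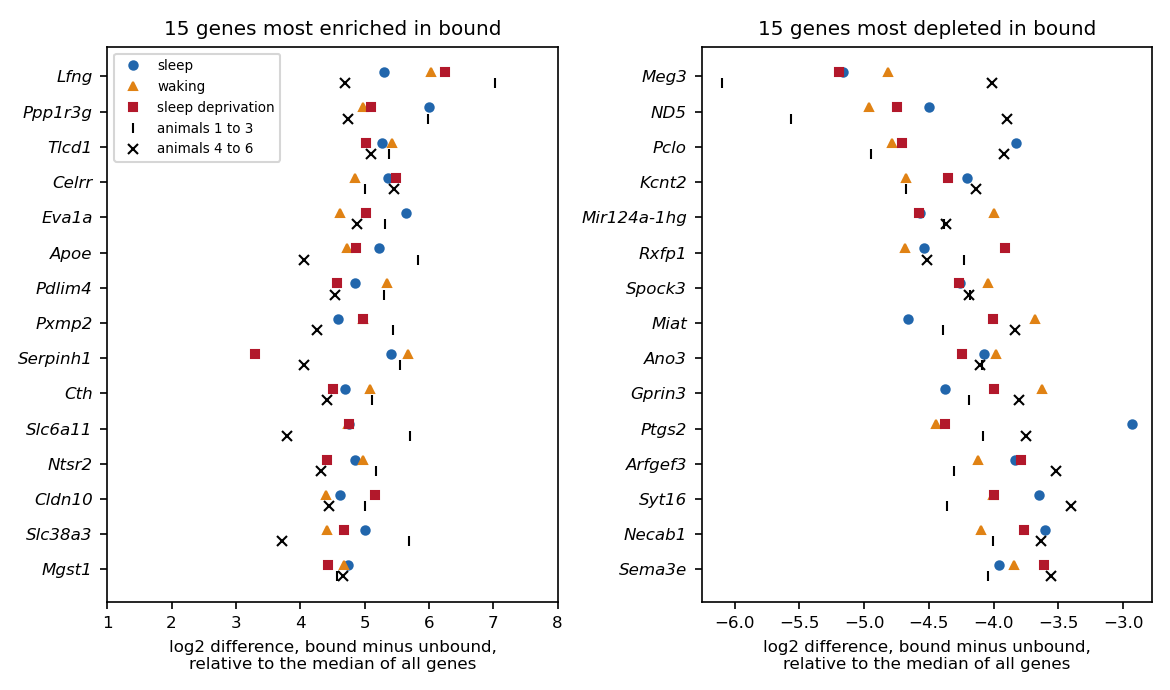
Log2 difference between bound and unbound fraction, relative to the median of all genes (x axis), for the 15 genes most enriched and the 15 most depleted in the bound fraction, separately for sleep, waking and sleep deprivation (coloured points) and for animals 1 to 3 and 4 to 6 (bars and crosses). The states lie close together for most genes, and the sets lie further apart for Lfng (7.03 and 4.70), Apoe (5.83 and 4.05) and Meg3 (-6.10 and -4.01).

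Transcription factors known from astrocytes and radial glia, the stem cells from which astrocytes arise, were enriched as a group: 21 of 23 passed as higher and 0 as lower, with a median difference of 2.83. Sox9, a factor required for astrocyte formation, lay at 11.54 to 12.16 (median 11.95) on bound and 8.50 to 9.19 (median 8.74) on unbound arrays, a difference of 3.02 ± 0.08. Factors better known from neural stem cells were also higher in the bound fraction of this adult cortex. Dbx2 (3.79 ± 0.20), Nr2e1 (3.75 ± 0.10), Tcf7l1 (3.44 ± 0.21), Sox2 (3.15 ± 0.10), Pax6 (2.87 ± 0.12) and the Notch effector gene Hes5 (2.83 ± 0.14) were all separated completely between fractions. For 2 abundant factors the brightest probe set gave a small enrichment, with 0.61 ± 0.07 for Id4 and 0.69 ± 0.13 for Nfix. Over the alternative analyses their differences ran from 0.44 to 1.764 and from 0.342 to 1.315. The probe set of Id4 was very bright, at 13.90 to 14.25 on bound arrays, and whether this compressed its difference was not tested. Nfib did not pass the test, at 9.88 to 10.79 (median 10.46) on bound and 9.73 to 10.57 (median 10.25) on unbound arrays, with a difference of 0.02 ± 0.13 (adjusted p = 0.251), and the Notch cofactor gene Rbpj (-0.30) did not either.

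Of 25 genes of Notch, FGF, BMP and Sonic hedgehog signalling, 22 were higher and 1 was lower, with a median of 1.96. Lfng, described above, had the largest difference of this list. The receptors included Fgfr1 (3.72 ± 0.19), Notch2 (2.17 ± 0.11), Notch1 (2.02 ± 0.13) and Smo, the transducer of hedgehog signals (3.69 ± 0.16). Target genes were also higher in the bound fraction, such as the Notch target Nrarp (3.46 ± 0.08), the BMP targets Id3 (4.09 ± 0.18) and Id1 (3.39 ± 0.31) and the hedgehog target Gli1 (1.96 ± 0.30). The Notch target Hey1 differed by only 0.56 ± 0.07. Activity of these pathways was not tested. The Notch ligand gene Dll1 was the exception, at 3.87 to 6.78 (median 5.00) on bound and 5.71 to 7.42 (median 6.77) on unbound arrays. It was lower by a difference of -1.75 ± 0.27 (adjusted p = 1.91e-05), although a few arrays overlapped. Smo ranged from 9.79 to 10.61 on bound and more widely, from 4.62 to 7.83, on unbound arrays. Its difference was 5.11 in sleep, 3.01 in waking and 2.93 in sleep deprivation.

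The complex that anchors astrocyte endfeet and handles potassium and water there was higher throughout, with 11 of 11 measured genes called and a median of 2.32. The adhesion protein gene Hepacam differed by 4.06 ± 0.13, its partner Mlc1 by 3.72 ± 0.09 and the potassium channel gene Kcnj10 by 3.58 ± 0.18. The dystrophin gene Dmd was the weakest, at 10.13 to 11.37 on bound and 9.95 to 10.67 on unbound arrays. Its difference of 0.38 ± 0.21 (adjusted p = 0.025) came to -0.13 in animals 1 to 3 and 0.90 in animals 4 to 6, and the call was lost in 9 of 37 alternative analyses. Among receptors for transmitters and peptides 10 of 12 were higher: Gpr37l1 (4.51 ± 0.22), the NMDA receptor subunit gene Grin2c (3.95 ± 0.15), the endothelin receptor gene Ednrb (3.71 ± 0.13), the sphingosine phosphate receptor gene S1pr1 (3.58 ± 0.07) and, to a small extent, the GABA-B receptor gene Gabbr1 (0.39 ± 0.10). The other 2, listed as astrocyte receptors but also prominent in neurons, were lower with complete separation: the metabotropic glutamate receptor gene Grm5 (-2.98 ± 0.17) and the AMPA receptor gene Gria2 (-2.86 ± 0.21).

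Genes of intermediate filaments and of fibrous or pial astrocytes followed, with 7 of 9 higher and 1 lower (median 2.44). Vimentin (Vim) differed by 3.10 ± 0.14, S100a6 by 2.86 ± 0.16, Cd44 by 1.62 ± 0.16 and Gfap, the filament gene most used to stain astrocytes, by 2.32 ± 0.19. The difference of Gfap was 1.74 in animals 1 to 3 and 2.89 in animals 4 to 6. The filament gene Synm was lower, by -1.47 ± 0.19, with overlapping arrays at 5.67 to 7.44 and 7.29 to 8.47.

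Metabolic lists repeated the direction of the markers and held clear exceptions that concerned single isoforms. For serine, glycine and one-carbon metabolism 11 of 14 genes were higher and 1 lower (median 1.51). The 3 steps of serine synthesis were all enriched, Phgdh (3.34 ± 0.13), Psat1 (2.17 ± 0.08) and Psph (2.65 ± 0.08), as was the glycine decarboxylase gene Gldc (3.31 ± 0.13). Aldh1l2, the mitochondrial relative of Aldh1l1, was lower (-1.05 ± 0.23), at 4.45 to 6.94 on bound and 6.25 to 6.79 on unbound arrays that overlapped. In the breakdown of proline, branched-chain amino acids and GABA, 14 of 15 genes were higher and 1 lower (median 1.65), led by the proline dehydrogenase gene Prodh (3.94 ± 0.24), with the GABA transaminase gene Abat at 1.91 ± 0.25 and the glutamate dehydrogenase gene Glud1 at 1.35 ± 0.08. The branched-chain transaminases went in opposite directions. Bcat2, the mitochondrial form, lay at 6.63 to 9.11 (median 7.89) on bound and 5.42 to 6.57 (median 6.02) on unbound arrays, a difference of 1.60 ± 0.32 (adjusted p = 4.26e-05; 2.32 and 0.88 in the sets). Bcat1, the cytosolic form, lay at 6.92 to 9.40 (median 8.27) on bound and 10.29 to 10.94 (median 10.42) on unbound arrays, a difference of -2.54 ± 0.22 (adjusted p = 2.79e-09). Both genes were separated completely, Bcat2 upward and Bcat1 downward, and Bckdha, a subunit of the next enzyme, was higher by 2.72 ± 0.37 (3.53 and 1.92 in the sets).

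The sterol transporters of lipoprotein assembly showed a similar contrast. Abca1 was at 8.60 to 9.70 (median 9.06) on bound and 6.22 to 7.54 (median 6.77) on unbound arrays, and Abcg1 at 5.72 to 7.23 (median 6.49) on bound and 8.30 to 8.87 (median 8.61) on unbound arrays. Neither gene overlapped between fractions, with differences of 2.16 ± 0.14 for Abca1 (adjusted p = 3.94e-12) and -2.25 ± 0.15 for Abcg1 (adjusted p = 7.73e-11). Cyp46a1, which turns over cholesterol and is known from neurons, was lower (-1.34 ± 0.11), as was the sorting receptor gene Sort1 (-0.83 ± 0.11). The other 12 of the 15 genes on this list were higher, among them the cholesterol esterifying enzyme gene Lcat (4.39 ± 0.13) and the fatty acid binding protein gene Fabp7 (2.45 ± 0.12). Counted with them was the metallothionein gene Mt1 (2.78 ± 0.09), which is not a lipid gene.

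Of 20 proteins that astrocytes use to organise synapses and adhere to neurons, 13 were higher and 2 lower (median 1.19). The proteoglycan gene Bcan differed by 3.65 ± 0.11, Sparc by 2.99 ± 0.14, its relative Sparcl1, which promotes synapse formation, by 2.65 ± 0.17, and the phagocytic receptor gene Mertk by 2.57 ± 0.10. Nlgn3, a neuroligin also made by neurons, was lower, at 7.53 to 9.19 against 8.94 to 9.84 with overlap and a difference of -0.84 ± 0.19 (adjusted p = 0.0028), and the ephrin gene Efnb1 (-0.56) was the other one.

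**Figure D4:**
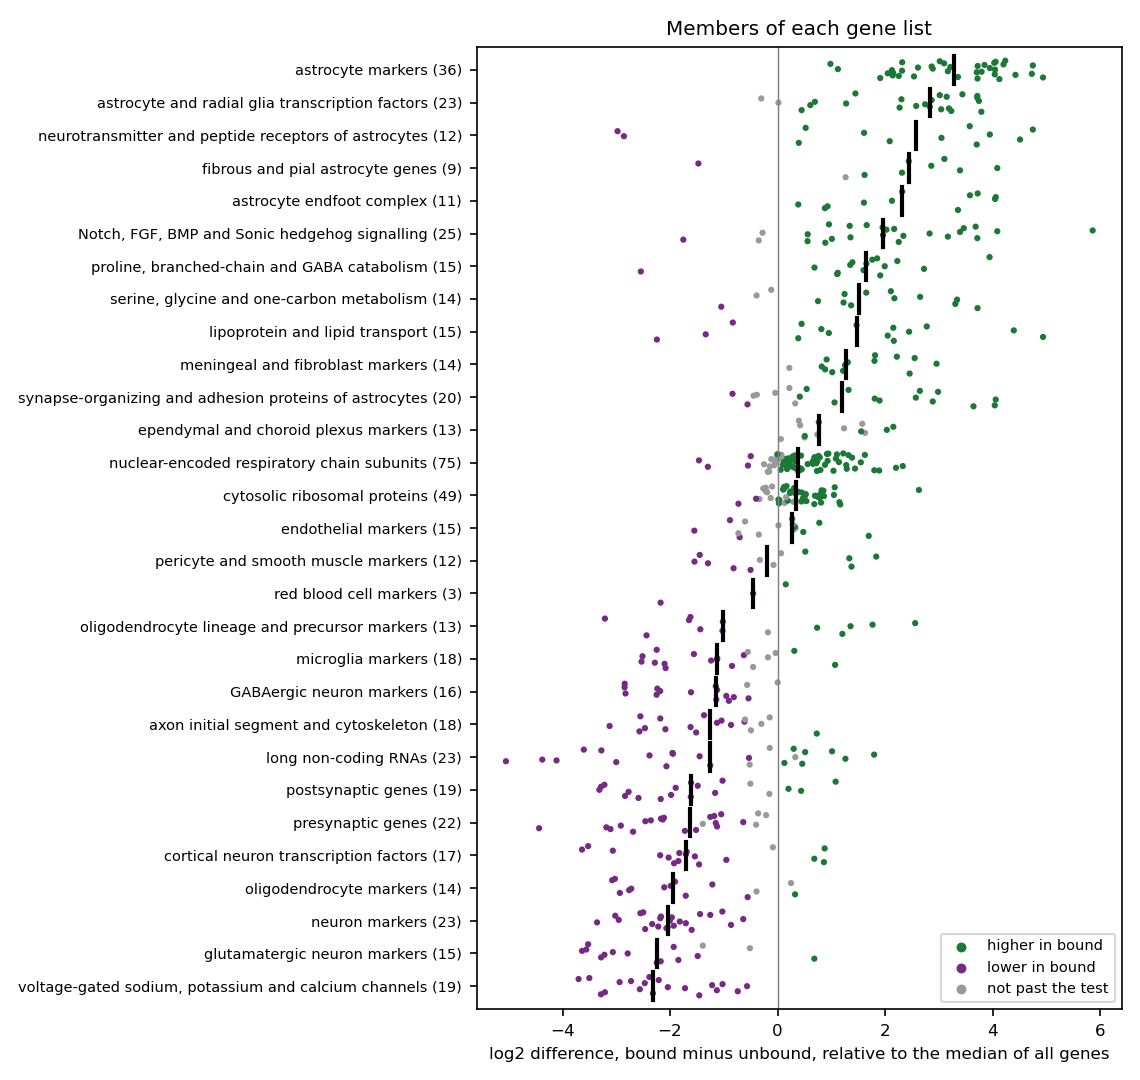
Log2 difference between bound and unbound fraction relative to the median of all genes (x axis) for each measured member of 29 gene lists, ordered by the list median (black bar), with members called higher, lower or neither in colour. The number of measured members stands after each list name, and list medians run from -2.32 for voltage-gated channels to 3.29 for astrocyte markers.

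The 15 most depleted genes were ranked in the same way, and 3 of them were non-coding RNAs. Meg3, an imprinted long non-coding RNA retained in nuclei, had levels of 4.62 to 8.50 (median 6.57) on bound and 11.24 to 11.72 (median 11.58) on unbound arrays. Its difference was -5.05 ± 0.47 (adjusted p = 6.31e-09), with -6.10 and -4.01 in the animal sets, and all 11 probe sets of Meg3 were lower, from -5.05 to -1.08. ND5, a respiratory chain subunit encoded in the mitochondrial genome and translated on mitochondrial ribosomes, covered 7.32 to 10.01 (median 8.84) and 13.16 to 13.47 (median 13.24). The difference of ND5 was -4.73 ± 0.36 (adjusted p = 2.89e-10), and it was the 1 mitochondrially encoded gene measured. Pclo, a scaffold of the presynaptic active zone, lay at 3.00 to 6.68 (median 5.51) and 9.29 to 9.86 (median 9.78), a difference of -4.44 ± 0.42 that 2 further probe sets also showed. Mir124a-1hg, the host transcript of a neuronal microRNA, was at 3.86 to 5.87 (median 4.75) on bound and 8.57 to 9.27 (median 9.17) on unbound arrays, a difference of -4.38 ± 0.18, with -4.39 and -4.37 in the sets.

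These genes were followed by the potassium channel gene Kcnt2 (-4.41 ± 0.33), the relaxin receptor gene Rxfp1 (-4.37 ± 0.28), Spock3 (-4.19 ± 0.19), the long non-coding RNA Miat (-4.11 ± 0.35), the anoctamin gene Ano3 (-4.10 ± 0.23) and Gprin3 (-4.00 ± 0.24). The list of 15 ended with Ptgs2, an activity-regulated cyclooxygenase gene (-3.92 ± 0.30), Arfgef3 (-3.91 ± 0.21), the synaptotagmin gene Syt16 (-3.88 ± 0.29), the calcium-binding protein gene Necab1 (-3.82 ± 0.26) and the guidance cue gene Sema3e (-3.80 ± 0.21). Ptgs2 differed less in sleep (-2.93) than in waking (-4.45) or sleep deprivation (-4.37), a contrast between states that did not pass the test of the difference. A second probe set of Miat did not pass the test (-0.33 ± 0.15), and one of Spock3 differed by 0.10 ± 0.11, which passed as higher before the median was taken off.

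Every one of the 23 measured pan-neuronal markers was lower with complete separation, at a median of -2.04. Over all genes 27.2% were lower and 10.1% were separated in that direction. The neurofilament gene Nefm was at 7.37 to 9.04 (median 8.26) on bound and 11.02 to 11.63 (median 11.56) on unbound arrays, a difference of -3.36 ± 0.21. Syn2 (-3.02 ± 0.18), the chloride transporter gene Slc12a5 (-2.95 ± 0.15), Tubb3 (-2.55 ± 0.13), Syn1 (-2.17 ± 0.14) and Nefl (-1.71 ± 0.13) followed. Some neuronal transcripts were depleted little. Snap25, a subunit of the vesicle fusion machinery, lay at 13.33 to 13.78 (median 13.58) on bound and 13.89 to 14.19 (median 14.08) on unbound arrays, a difference of -0.64 ± 0.07. Whether the brightness of its probe set compressed this difference was not tested. Map2 differed by -0.87 ± 0.11.

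Among glutamatergic markers 12 of 15 were lower and 1 was higher (median -2.25). The pyramidal neuron factor genes Neurod6 (-3.64 ± 0.21) and Tbr1 (-3.52 ± 0.22), the pentraxin gene Nptx1 (-3.56 ± 0.18) and the kinase gene Camk2a (-2.17 ± 0.15) were all separated completely. Slc17a7, the vesicular glutamate transporter of most cortical pyramidal cells, gave another picture, at 5.33 to 10.40 (median 8.19) on bound and 8.74 to 9.53 (median 9.07) on unbound arrays. The overlap came from the animal sets: Slc17a7 lay between 8.97 and 10.40 in bound arrays of animals 1 to 3 and between 5.33 and 7.41 in those of animals 4 to 6. The pooled difference of -1.39 ± 0.72 did not pass the test (adjusted p = 0.134) but did with the animal set as a replicate block (adjusted p = 0.0167), and it was 0.32 in animals 1 to 3 and -3.10 in animals 4 to 6. Nrgn, a calmodulin-binding protein of pyramidal cell dendrites, behaved likewise, with 11.80 to 12.57 and 9.98 to 10.62 in the sets against 11.35 to 11.88 unbound, and a difference of -0.51 ± 0.42 (adjusted p = 0.46). The layer 5 factor gene Fezf2 was higher by 0.68 ± 0.13, with overlap.

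Of 16 GABAergic markers 14 were lower and 0 higher, with a smaller median of -1.15. Reln (-2.85 ± 0.24), the tachykinin gene Tac1 (-2.84 ± 0.26), Gad2, which makes GABA (-2.83 ± 0.26), and the parvalbumin gene Pvalb (-2.24 ± 0.21) were separated completely. Vip did not differ detectably, at 7.40 to 8.92 on bound and 7.27 to 8.99 on unbound arrays (0.00 ± 0.12, adjusted p = 0.241). Sst had a difference of -0.57 ± 0.25 (adjusted p = 0.152), which was 0.01 in animals 1 to 3 and -1.14 in animals 4 to 6.

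Transcription factors of cortical neurons were lower in 13 of 17 cases and higher in 3 (median -1.70). Neurod2 differed by -3.06 ± 0.17, while Rorb (0.88 ± 0.13) and Cux1 (0.86 ± 0.10), used as markers of upper cortical layers, were higher with complete separation, and Fezf2 was the third. For synaptic genes the depletion covered both sides of the synapse. Of 22 presynaptic genes 18 were lower and 0 higher (median -1.62), including the active zone genes Ppfia2 (-3.19 ± 0.15), Erc2 (-3.11 ± 0.25) and Bsn (-2.69 ± 0.15) and the vesicle protein gene Syp (-2.11 ± 0.08). Of 19 postsynaptic genes 14 were lower and 3 higher (median -1.62). Gabrb2 lay at 7.59 to 8.50 (median 7.98) on bound and 10.97 to 11.38 (median 11.16) on unbound arrays, a difference of -3.32 ± 0.12, and Gria3 (-3.28 ± 0.21) and Grin2b (-3.22 ± 0.30) were similar.

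The postsynaptic genes called higher did not hold that call throughout. Shank1, a scaffold protein, was at 9.09 to 10.11 in bound arrays of animals 1 to 3, at 7.30 to 8.05 in those of animals 4 to 6 and at 7.05 to 7.86 in the unbound arrays. Its difference of 1.08 ± 0.43 was thus 2.05 and 0.12 in the sets. Dlgap3 gave 0.44 ± 0.24 (0.99 and -0.11) and lost its call without the first sleep pool (0.39), the second waking pool (0.42) or the first sleep deprivation pool (0.39). The last was Gphn at 0.20, and with arrays centred on their median 0 of the 19 postsynaptic genes were called higher.

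All 19 measured voltage-gated sodium, potassium and calcium channel genes were lower, 16 of them with complete separation, and their median of -2.32 was the lowest of the lists. Scn3a, a sodium channel gene, lay at 3.85 to 6.24 (median 4.68) on bound and 7.74 to 8.69 (median 8.30) on unbound arrays, a difference of -3.70 ± 0.29. The calcium channel gene Cacna1b (-3.29 ± 0.28), the sodium channel gene Scn1a (-2.94 ± 0.13) and the potassium channel gene Kcna4 (-2.56 ± 0.30) were lower too, and Kcnd2 was the least changed (-0.57 ± 0.15, adjusted p = 0.0202), with no call in animals 4 to 6 (-0.38) or without the first sleep deprivation pool (-0.52). Of 18 genes of the axon initial segment and cytoskeleton 13 were lower and 1 higher (median -1.25). Map1b, which binds axonal microtubules, differed by -3.12 ± 0.15, whereas the ankyrin gene Ank2 was higher at 12.20 to 12.80 against 11.31 to 11.89 (0.73 ± 0.10).

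The other glial lineages were split. Of 14 oligodendrocyte markers 11 were lower and 1 higher (median -1.95): Tspan2 (-3.08 ± 0.19), the lipid enzyme gene Ugt8a (-3.03 ± 0.19), the myelin genes Mag (-2.76 ± 0.16) and Mbp (-2.11 ± 0.15) fell on one side, and Cnp (0.33 ± 0.06) on the other. In the oligodendrocyte lineage and precursor list 5 of 13 genes (38.5%) were higher and 7 (53.8%) lower (median -1.02), beside 42.2% and 27.2% of all genes. The ones that were higher included the lineage factors. Olig1 was at 11.11 to 12.20 (median 11.67) on bound and 9.53 to 9.94 (median 9.74) on unbound arrays, a difference of 1.77 ± 0.13. Olig2 (2.56 ± 0.28, with 3.25 and 1.87 in the sets) and Nkx2-2 (1.36 ± 0.16) were separated as well, and C1ql1 (1.21) and Matn4 (0.74) completed the 5. In the same list Sox10 (-1.65 ± 0.26), the growth factor receptor gene Pdgfra (-1.02 ± 0.20, and -0.48 without a call as the mean of its probe sets), the matrix protein gene Tnr (-3.21 ± 0.24) and Bcas1 (-2.44 ± 0.20) were lower.

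Microglia markers were lower in 12 of 18 cases and higher in 2 (median -1.12). The protease gene Ctss was at 5.65 to 7.82 (median 6.79) on bound and 9.04 to 9.23 (median 9.09) on unbound arrays, a difference of -2.53 ± 0.24. Csf1r (-2.28 ± 0.47), Tyrobp (-2.25 ± 0.19) and Aif1 (-2.08 ± 0.21) were also lower. The complement gene C1qc was higher at 1.07 ± 0.27 with overlapping arrays, and with 1.64 and 0.50 in the sets, and the other one was Trem2 at 0.31. Of 15 endothelial markers 6 (40%) were higher and 3 (20%) lower, beside 42.2% and 27.2% of all genes. They showed no common direction (median 0.27), and centring the arrays turned the counts into 2 higher and 6 lower. Their extremes were the cadherin gene Cdh5 (1.70 ± 0.37, 2.35 and 1.04 in the sets) and the junction protein gene Esam (-1.55 ± 0.18), with Tek (-0.89) and Abcb1a (-0.70) also lower. Of 12 pericyte and smooth muscle markers 4 were higher and 5 lower: Pdgfrb (1.84 ± 0.18) and Notch3 (1.34 ± 0.16) were higher with complete separation, and Kcnj8 (-1.55 ± 0.14) and Rgs5 (-1.45 ± 0.24) were lower. The rest of these calls were Anpep (1.38) and Vtn (0.52) on the higher side and Higd1b (-1.29), Acta2 (-0.82) and Abcc9 (-0.50) on the lower.

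For meninges and fibroblasts, 13 of 14 marker genes passed as higher and 0 as lower, with a median of 1.28. Foxc1, a transcription factor of the meninges, was at 6.15 to 9.01 (median 7.72) on bound and 3.93 to 5.98 (median 4.58) on unbound arrays, a difference of 2.96 ± 0.38. Ogn (2.55 ± 0.36, with 3.62 and 1.48 in the sets), the retinoic acid enzyme gene Aldh1a2 (2.46 ± 0.16) and Lum (1.80 ± 0.31) were also separated completely. Of 13 ependymal and choroid plexus markers 5 (38.5%) were higher, a share near the 42.2% of all genes, and 0 lower (median 0.77). With the animal set as a replicate block 8 were higher. Otx2 (2.15 ± 0.70), Kcnj13 (2.03 ± 0.61) and the ciliary factor gene Foxj1 (1.56 ± 0.17) were called with Tmem212 (0.77) and Cdhr4 (0.51). In animals 4 to 6 alone Otx2 (1.74) and Kcnj13 (1.78) had no call. Ttr ran from 8.99 to 14.30 on bound and from 8.24 to 13.47 on unbound arrays (0.40 ± 0.81, adjusted p = 0.557). Markers of meninges thus moved with the fraction, and their part in the other differences was not tested. Of 3 measured red blood cell genes 1 was higher and 2 lower (median -0.46), and Alas2, which starts haem synthesis, differed by -2.18 ± 0.15.

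Non-coding RNAs were examined as a class. Of 1355 genes annotated as long non-coding, 484 (35.7%) were higher and 315 (23.2%) lower, against 7048 and 4548 of 16468 protein-coding genes, and the class medians were -0.07 and 0.01. Of 23 listed brain non-coding RNAs 7 were higher and 13 lower (median -1.25). Malat1, a nuclear RNA, was at 8.98 to 12.87 (median 11.20) on bound and 13.82 to 14.27 (median 14.16) on unbound arrays. Its difference was -3.0 ± 0.42, with -3.91 and -2.09 in the sets. Snhg14 (-3.60 ± 0.22) and Snhg11 (-3.28 ± 0.31), host transcripts of small nucleolar RNAs, were lower, but another host transcript, Snhg1, was higher (1.01 ± 0.13), and the nuclear RNA Neat1 did not pass the test (0.33 ± 0.22, adjusted p = 0.0547). Pantr1, which neighbours a neural transcription factor gene, was higher at 12.37 to 13.06 (median 12.81) against 10.46 to 11.23 (median 10.81), a difference of 1.80 ± 0.10.

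The host transcripts of 2 brain microRNAs lay on opposite sides. Mir124a-1hg was lower, as given above. Mir9-3hg, the host of a miR-9 copy on chr7:79500026-79534403 (GRCm38.p6), was at 6.79 to 9.04 (median 8.03) on bound and 6.25 to 7.08 (median 6.56) on unbound arrays. It overlapped slightly and had a difference of 1.26 ± 0.18 (adjusted p = 4.89e-07). The arrays measured the host RNA and not the mature microRNA. The mature forms encoded there are shown as RefSeq lists them, since they are what ties this host to miR-9, with the seed, bases 2 to 8, in capitals.
mmu-miR-9-5p, chr7:79505279-79505301, plus strand: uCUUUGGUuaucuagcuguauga
mmu-miR-9-3p, chr7:79505318-79505339, plus strand: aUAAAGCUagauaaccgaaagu
The seeds of the 2 arms differ, so these arms belong to different seed families.

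The lists of housekeeping genes had medians slightly above that of all genes. Larger shares of them were called higher than the 42.2% of all genes. Of 49 cytosolic ribosomal protein genes 37 (75.5%) were higher and 2 lower (median 0.33). Of 75 nuclear-encoded respiratory chain genes 59 (78.7%) were higher and 4 lower (median 0.38). Every bound array lay above every unbound one for 22 ribosomal and 43 respiratory chain genes, beside 17.2% of all genes. The counts of called genes depended on scaling, with 23 higher and 9 lower ribosomal and 38 higher and 14 lower respiratory chain genes after centring, and 25 and 7 and 47 and 7 after repeated quantile normalization. The medians moved as well, to 0.19 for ribosomal and 0.17 for respiratory chain genes after quantile normalization, and the ribosomal median was 0.51 in animals 1 to 3, 0.22 in animals 4 to 6 and 0.21 without dim genes. The ribosomal genes called lower were Rpl12 (-0.73) and Rpl39l (-0.40), and the respiratory chain genes called lower were Ndufb4 (-1.46), Cox6a2 (-1.30), Cox7a2l (-0.55) and Sdha (-0.50). Some members lay far outside their list. Rps27l, a relative of a ribosomal protein, was at 11.23 to 11.97 (median 11.64) on bound and 8.31 to 9.44 (median 8.62) on unbound arrays, a difference of 2.63 ± 0.10, and Rpl22 differed by 1.15 ± 0.14. Among respiratory chain genes the tissue-specific isoforms Cox7a1 (2.33 ± 0.17) and Cox4i2 (2.20 ± 0.47, with 3.15 and 1.26 in the sets) were higher. The ATP synthase gene Atp5g1 depended on the probe set, with 1.89 ± 0.30 for the brighter one, -1.54 ± 0.27 for the other and 0.22 for the mean of both. The mitochondrially encoded subunit gene ND5, as given above, was lower.

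For many genes different probe sets on the array gave different answers. Of 9010 genes with 2 or more probe sets, 1428 had probe sets called in both directions, 3069 had all of them called in 1 direction and 818 had none called. Ntrk2, the receptor of brain-derived neurotrophic factor, which is made as a full-length kinase form and as truncated forms, was singled out after its values had been seen because its 8 probe sets ranged from 3.85 to -2.62. Probe set 1420837_at was at 11.82 to 13.03 (median 12.54) on bound and 7.95 to 8.95 (median 8.50) on unbound arrays (3.85 ± 0.20), with 1435196_at (3.28 ± 0.07) and 1420838_at (2.78 ± 0.07) alongside. Probe set 1435305_at was at 8.31 to 9.14 (median 8.80) on bound and 10.31 to 10.80 (median 10.71) on unbound arrays (-2.08 ± 0.10), and 1437560_at (-1.28 ± 0.16), 1444121_at (-2.47 ± 0.21) and 1458622_at (-2.62 ± 0.28) were lower as well. These 3 higher and 4 lower probe sets were each separated completely between fractions. Probe set 1446712_at was also called higher, by 0.30 ± 0.09, at low levels that overlapped (medians 3.51 on bound and 3.23 on unbound arrays). Which Ntrk2 transcript each probe set reads was not given in the sources used here.

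**Figure D5:**
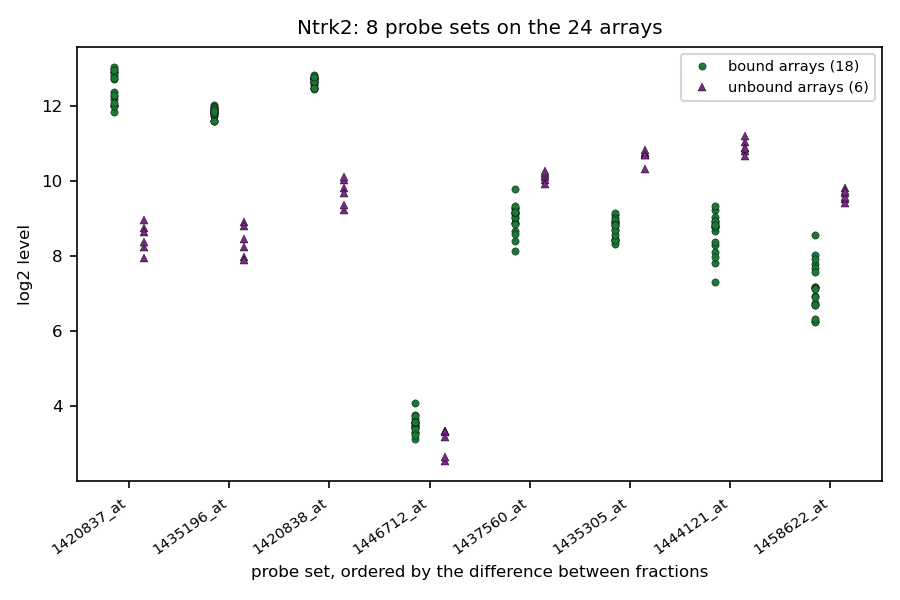
Log2 level of the 8 Ntrk2 probe sets (x axis, ordered by difference) on the 18 bound and 6 unbound arrays (y axis). For the 3 probe sets on the left all bound arrays lie above the unbound ones, and for the 4 on the right they lie below.

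The comparison was repeated within each state, where 6 bound arrays faced 2 pools. In sleep 6139 genes (33.7%) were higher and 3380 (18.6%) lower, in waking 4934 (27.1%) and 4210 (23.1%), and in sleep deprivation 6162 (33.9%) and 3482 (19.1%). Without the first sleep pool 2229 genes were lower in sleep. A call in all 3 states was made for 3625 higher and 2209 lower genes, and 395 genes were called higher in 1 state and lower in another. Of the 12627 genes called over all states, 11008 had the same sign in all 3. The difference between fractions itself changed with state for 1018 genes (5.6%) between waking and sleep, 890 (4.89%) between sleep deprivation and sleep and 934 (5.13%) between sleep deprivation and waking. Astrocyte genes among them were Pax6 (-1.24 in waking minus sleep, adjusted p = 0.00587), S1pr1 (-0.59, adjusted p = 0.0043), Aqp4 (-0.63, adjusted p = 0.0115) and Vim (-1.04, adjusted p = 0.0357), each less enriched in waking. The defining markers Aldh1l1, Gjb6 and Slc1a3 did not pass. Among the genes examined singly, 2.93% of 546 contrasts passed, a smaller share than over all genes. Each of these state contrasts rests on 2 pools per state in the unbound fraction, and waking animals were also killed at another time of day. If arrays were normalized group by group, state and processing run cannot be told apart here either.

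Between the animal sets, 8748 genes were called in the same direction in animals 1 to 3 and in animals 4 to 6, and 194 in opposite directions. Of the 182 genes examined singly, 60 had a bound-minus-unbound difference that changed between the sets, among them 12 of the 30 ranked genes. Both shares lay above that of all genes, where 3854 of 18193 (21.2%) changed. Gfap and Dmd differed upward in animals 4 to 6 by 1.20 and 1.08, and Lfng (-2.28), Apoe (-1.72), Slc17a7 (-3.37) and Shank1 (-1.88) downward. The defining markers Aldh1l1 (-0.13), Aqp4 (-0.15), Gjb6 (0.28) and Slc1a3 (0.30) did not pass this test.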

How the data were processed

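RNA bound to tagged astrocyte ribosomes and unbound RNA from the same cortices were measured on Affymetrix mouse genome arrays. Per the submitters' processing notes the deposited log2 values were made with RMA, which corrects background, applies quantile normalization and summarises probes into probe sets; its version and which arrays were processed together are not given in the sources used here. Of 45101 probe sets 64 are controls, 34945 have 1 gene symbol in GEO's platform annotation, 932 several and 9160 none. Each of the 18193 genes tested was represented by 1 probe set, the brightest on average. Gene names were updated through RefSeq by Entrez identifier for 34741 probe sets.

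A linear model with 6 group means was fitted in limma 3.58.1 (R 4.3.3). The contrast was the mean of the 3 bound minus the mean of the 3 unbound groups, with Benjamini-Hochberg adjustment over all genes, and it was tested on simulated data first. Labels name bound samples as single animals and unbound samples as pools of the same animals, so the fractions are not independent. A fit with the animal set as a block was run because both fractions carry the numbers of their animals. After group means were removed, the mean of 3 bound arrays and the pool of the same animals correlated at 0.028 in sleep, -0.046 in waking and 0.006 in sleep deprivation over the genes. The number of arrays limits the precision, and RMA compresses differences of dim probes.

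Genes named were the 15 largest differences in each direction among called genes without overlap between fractions, leaving out predicted and clone-named transcripts, the defining markers with Rpl10a, members of the lists, and other probe sets of these ranked genes and markers that differed in direction; Ntrk2 was added after its values were seen. The members and lists were chosen with earlier results of these data known. Alternatives covered scaling, probe set choice, dim genes, array weights, a fold limit and leaving out arrays or animal sets. The comparison of animal sets was added after the data were examined.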

Additional observations from a re-analysis of the deposited data

Results flagged for a closer look

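Single arrays that stood apart from the other 5 of their group were looked for in 546 groups of 6 bound arrays, over the 182 genes examined. Such an array was found in 16 groups (2.93%), fewer than the share of about 1 in 20 that chance alone gives by the criterion used (Dixon's), so the values below are given as a description. Among depleted genes, Pclo was at 3.00 in waking animal 3 against 5.12 to 6.12 in the others. Mir124a-1hg was at 5.76 in sleep-deprived animal 5 against 4.48 to 4.81. Ano3 was at 6.88 in sleep-deprived animal 3 against 5.05 to 5.69. Sema3e was at 6.59 in sleep-deprived animal 4 against 4.99 to 5.48. Ptgs2 was at 5.25 in sleeping animal 4 against 2.31 to 3.30. Bsn was at 8.73 in waking animal 1 against 9.21 to 9.45, and Cyp46a1 at 7.98 in sleeping animal 6 against 8.45 to 8.68. Snhg14 stood apart in 2 groups, at 7.82 in waking animal 6 against 6.01 to 6.61 and at 5.74 in sleep-deprived animal 4 against 6.62 to 6.77.

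Among enriched genes, Sox9 was at 11.54 in sleep-deprived animal 3 against 11.87 to 12.03, and Sox2 at 11.31 in waking animal 3 against 11.78 to 12.05. Nrarp was at 11.70 in sleeping animal 2 against 11.98 to 12.10, and Grin2c at 10.99 in sleeping animal 1 against 9.96 to 10.28. Gli1 was at 5.72 in waking animal 5 against 6.53 to 6.91. Foxj1 was at 7.59 in sleep-deprived animal 5 against 6.15 to 6.54, and Cox7a1 at 7.46 in sleep-deprived animal 6 against 8.56 to 8.83.

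The difference between fractions changed with state for 12 of the 182 genes by the limma interaction test. These were 16 of 546 contrasts (2.93%), a share below the 5.6%, 4.89% and 5.13% over all genes in the contrasts of waking with sleep, sleep deprivation with sleep and sleep deprivation with waking. From sleep to waking it moved by -0.95 for Eva1a (adjusted p = 0.0102), -0.63 for Aqp4 (0.0115), -2.02 for Smo (0.00182), -1.0 for Gldc (0.0268), -1.04 for Vim (0.0357), -0.70 for Rps27l (0.035), -0.50 for Ntrk2 (0.0159), -1.24 for Pax6 (0.00587) and -0.59 for S1pr1 (0.0043). From sleep to sleep deprivation it moved by -2.11 for Smo (0.00227) and 1.15 for Ndufb4 (0.0405). From waking to sleep deprivation it moved by -2.38 for Serpinh1 (0.0417), 0.67 for Aqp4 (0.0135), 0.79 for Rps27l (0.0336), 1.25 for Alas2 (0.0312) and 1.36 for Ndufb4 (0.00445). What lies behind these changes was not tested.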

How the results depend on the processing

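Of the 182 genes examined singly, 158 kept direction and call in every alternative run for them, 37 for 168 genes and 36 for the 14 that were among the dim genes left out. Centring arrays on their median gave 5049 higher and 7662 lower genes (within sleep 3724 and 6105, within sleep deprivation 3846 and 5627). A limit of 1.5-fold gave 3577 and 2278 genes, which small differences such as those of Nfix, Fezf2, Hey1, Nlgn3, Snap25, Map2, Cnp, Gabbr1 and Sort1 did not pass, and testing every probe set gave 13156 and 10637 probe sets. Leaving out 1 array at a time gave 7165 to 7728 higher and 4581 to 4978 lower genes over all states, and 2229 to 3404 lower genes within sleep, the lowest without the first sleep pool. Direction here is the sign of the difference as fitted, before the median was taken off. After centring it reversed for Nfib and Vip, whose printed differences stayed at 0.016 and 0.002. In animals 1 to 3 it reversed for Nfib (-0.312), Slc17a7 (0.322), Nrgn (0.400) and Sst (0.008), and in animals 4 to 6 for Ttr (-0.384). Ttr ranged from -0.328 to 1.121 when 1 array was left out. None of the genes with a reversed direction passed the test as deposited, and the cause was not tested. The printed differences of Dmd (-0.128 in animals 1 to 3) and Dlgap3 (-0.11 in animals 4 to 6) changed sign without a reversal as fitted. The astrocyte list kept 36 higher and the neuron list 23 lower members whichever array was left out. With the animal set as a replicate block 7648 genes were higher and 4983 lower, 96.7% of calls were kept, and among the genes examined Slc17a7 was the 1 whose call changed. The mean of a gene's probe sets in place of 1 probe set gave 4.54 for Lfng, 2.36 for Slc6a11, 2.23 for Mgst1, -2.61 for Meg3, -2.19 for Miat, -2.0 for Spock3 and Scn3a, 2.0 for Smo, -1.61 for Syn2, 0.215 for Atp5g1 and 0.26 for Ntrk2. Treating the 6 group means as units kept 72.6% of calls, an alternative chosen after the data were examined.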

Other observations

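The 9160 probe sets without a gene symbol leaned the other way from the named genes, with 2186 higher and 3140 lower in the bound fraction, and with 31 and 73 of them beyond 8-fold. The largest differences among the unnamed probe sets were 5.32 ± 0.18 for 1450136_at and 4.73 ± 0.26 for 1434430_s_at in the bound direction. In the unbound direction they were -5.02 ± 0.14 for 1444806_at and -4.67 ± 0.21 for 1439732_at. These probe sets are unnamed in the annotation used here.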
